A study of Danio rerio with 16 samples.

Results

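The miR-19 family comprised 4 of the 245 zebrafish miRNAs on the array, dre-miR-19a, dre-miR-19b, dre-miR-19c and dre-miR-19d (called miR-19a to miR-19d below), taken by the gene name in the scanner files and without the star arms. The arrays measured miRNA in total RNA of wild-type TL strain zebrafish embryos. Embryos kept from 4 hours post-fertilization (hpf) in valproic acid (VPA), an anticonvulsant drug and inhibitor of histone deacetylases, were compared with embryos kept in the ethanol vehicle. The 4 groups were VPA at 96 hpf, vehicle at 96 hpf, VPA at 48 hpf and vehicle at 48 hpf, with 4 arrays each. The labels used here give no dose and do not say how many embryos made a sample or whether replicates came from separate clutches. The p-values therefore measure the spread between these samples, which may be technical. In whole-embryo RNA, fewer cells of a type and less RNA per cell cannot be told apart.

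MicroRNAs are short RNAs that guide Argonaute proteins to messenger RNAs, mainly through the bases near their 5′ end called the seed, and lower the output of those messages. The miR-19 family is the group with its own seed within the miR-17-92 cluster and the clusters related to it, whose other members belong to the miR-17, miR-18 and miR-92 seed families. In mouse B-cell lymphoma the miR-19 members are known as the part of miR-17-92 that promotes tumour growth.

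The 4 members are near-copies, so the probes that read them are shown here. Each sequence is the DNA probe that stood for a member, 5′ to 3′, which pairs with the 3′ part of the miRNA, and the capitals mark the 4 positions (1, 2, 13 and 15, counted from the probe's 5′ end) at which the probes differ over the 16 bases that all of them cover.
miR-19a: TCagttttgcatAgAtttgca
miR-19b: TCagttttgcatGgAtttgc
miR-19c: CGagttttgcatGgAt
miR-19d: TCagttttgcatGgGtt

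The miR-19a and miR-19b probes differed at 1 of 20 shared positions (A13G), and the miR-19b and miR-19d probes at 1 of 17 (A15G). The miR-19b and miR-19c probes differed at 2 of 16 positions (T1C and C2G). Binding of 1 member to another member's probe was not tested, so the values are those of the probes. Each member had 2 probes of 20 spots, of which the brighter on average stands for it and the other is 1 base shorter. Every member was well above background on 16 of 16 arrays.

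On the danRer6 build, the array's annotation places the family in 3 clusters. The miR-19a and miR-19b probes lie at chr8:45338117-45338136 and chr8:45338486-45338504 on the plus strand, inside a run of 10 miRNAs and star arms at chr8:45337794-45338621 that begins with miR-17a and ends with miR-92a. The miR-19c probe lies at chr14:32739701-32739715 on the minus strand, in a run of 4 miRNAs (miR-363, miR-19c, miR-20b and miR-18c) at chr14:32739356-32740011. The miR-19d probe lies at chr14:354358-354373 on the minus strand, between miR-25 and miR-93 at chr14:354252-354500. These annotated spans are 1 base shorter than the probes, and no host gene or exon is annotated in the files.

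Values are log2 of the signal over the array's own 75th percentile, so 0 is that percentile, and a probe's level is not set against another probe's. The 75th percentile itself was 1249 to 6179 intensity units on VPA arrays and 1956 to 2406 on vehicle arrays at 96 hpf, against 507 to 2356 on VPA arrays and 897 to 1220 on vehicle arrays at 48 hpf. Replicates 3 and 4 of VPA at 96 hpf and replicate 4 of VPA at 48 hpf were brighter than every vehicle array of their time. All 48 hpf arrays lay on 1 slide and all 96 hpf arrays on another, so age and slide cannot be told apart. On both slides 1 column of arrays was all VPA and the other all vehicle, so the effect of treatment and that of array column cannot be told apart either. The replicate number was also the array's row on its slide, so replicate and row cannot be told apart.

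At 48 hpf miR-19c rose under VPA while miR-19a, miR-19b and miR-19d did not pass the test. miR-19c stood at 0.02, 0.04, 0.14 and 0.39 (log2) on the VPA arrays, against -0.19, -0.22, -0.17 and -0.36 on the vehicle arrays. All 4 VPA arrays were above all 4 vehicle arrays, and the highest was the bright replicate 4. The difference was 0.38 ± 0.08 (log2, SE), 1.30-fold, with an adjusted p of 0.00246 (limma, Benjamini-Hochberg over 178 miRNAs tested). With no scaling between arrays it turned to -0.06, where the median over all 178 miRNAs was -0.31. Without the bright 48 hpf array it was 0.30 and still passed (adjusted p = 0.00581). With normexp background correction it did not pass, and the call held in 13 of 15 alternative settings.

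miR-19d stood at 1.43, 1.33, 1.44 and 1.49 (log2) under VPA at 48 hpf, against 1.27, 1.25, 1.17 and 1.22 in vehicle. The groups did not overlap, yet the difference of 0.19 ± 0.08 had an adjusted p of 0.067 (limma). Without the bright array of that age it was 0.17 (adjusted p = 0.149). It passed without VPA replicate 4 of 96 hpf, which lies in neither group but enters the shared spread (adjusted p = 0.0054), and without all 3 bright VPA arrays (0.17, adjusted p = 0.0202). Its sign turned with no scaling (-0.24) and with normexp background correction (-0.01).

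miR-19a stood at 2.78, 2.87, 2.82 and 2.56 (log2) under VPA at 48 hpf, against 2.97, 2.95, 2.96 and 2.86 in vehicle. All but 1 VPA value lay below all vehicle values, and replicate 4 was the lowest of both groups. The difference was -0.18 ± 0.20, with a 95% confidence interval from -0.61 to 0.25 and an adjusted p of 0.514 (limma). The wide interval comes from a spread shared over the 16 arrays, which includes the array of VPA at 96 hpf described below, and without that array the same difference had an adjusted p of 0.0317. miR-19b stood at 4.61, 4.59, 4.64 and 4.62 under VPA, against 4.70, 4.67, 4.60 and 4.51 in vehicle. The 4 VPA arrays lay inside the vehicle range, and the difference was -0.01 ± 0.10 with an interval from -0.21 to 0.20 (adjusted p = 1, limma).

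Of the 4 members, 1 was thus called higher and 0 lower at 48 hpf by limma, and 1 more (miR-19d) had an unadjusted p under 0.05 (0.0234). Over all 178 miRNAs tested, 16.3% were called higher and 12.9% lower, so 1 in 4 is close to the background. The groups did not overlap for 2 of the 4 members, against 41.6% of all tested.

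At 96 hpf miR-19c and miR-19d were called higher under VPA by small margins, and miR-19a and miR-19b did not pass. miR-19c stood at -0.77, -1.01, -0.79 and -0.78 (log2) under VPA, against -1.14, -1.04, -1.02 and -1.01 in vehicle. The groups did not overlap, but VPA replicate 2 lay next to the highest vehicle array. The difference was 0.22 ± 0.08, 1.16-fold, with an adjusted p of 0.0465 (limma). Same-numbered samples deviated together at 96 hpf, and with the replicate number as a block the adjusted p was 0.0957, so the call was lost. It was also lost without the brightest array, VPA replicate 4 (0.20, adjusted p = 0.074), and on leaving out any of 10 other single arrays, and it held in 6 of 15 alternative settings.

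miR-19d stood at 0.30, 0.37, 0.32 and 0.69 (log2) under VPA at 96 hpf, against 0.09, 0.23, 0.14 and 0.28 in vehicle. The groups did not overlap, with VPA replicate 4 far above the rest. The difference was 0.23 ± 0.08, 1.17-fold, with an adjusted p of 0.032 (limma), and without VPA replicate 4 it was 0.14 with an adjusted p of 0.0493. The call was lost without vehicle replicate 1 (adjusted p = 0.09) or vehicle replicate 3 (0.0817), and without all 3 bright VPA arrays (0.0706), and it held in 9 of 15 alternative settings.

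miR-19a stood at 2.21, 2.14, 2.21 and 1.0 (log2) under VPA at 96 hpf, against 2.22, 2.08, 2.15 and 2.02 in vehicle. VPA replicates 1 to 3 lay within the vehicle range and replicate 4 far below it. The difference was -0.23 ± 0.20 (adjusted p = 0.427, limma), and it was 0.07 without that array. miR-19b stood at 3.93, 3.88, 3.98 and 3.40 under VPA, against 3.95, 3.97, 3.93 and 3.96 in vehicle. Replicate 4 was again the lowest, and the difference was -0.16 ± 0.10 (adjusted p = 0.237, limma) with it and -0.02 without it. The 2 of 4 members called higher compare with 14.6% called higher and 18.5% called lower over the 178, and the 2 whose groups did not overlap with 32.0%.

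**Figure D1:**
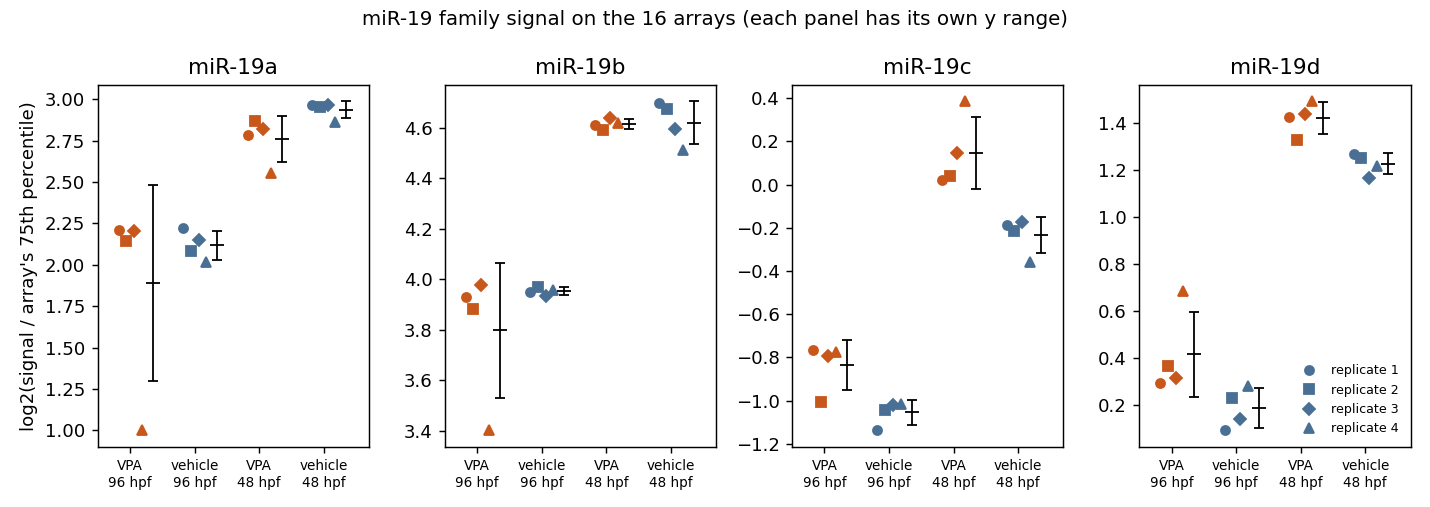
Each point is 1 array, as log2 of the signal over the array's 75th percentile, with a panel for each member and its own y range. Bars beside the points are the mean ± SD of 4 arrays. miR-19c and miR-19d were higher on every VPA array than on every vehicle array of the same time (at 48 hpf both differences turn negative with no scaling between arrays), and VPA replicate 4 at 96 hpf stands apart for miR-19a (1.0) and miR-19b (3.40).

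The values of VPA replicate 4 at 96 hpf need the signal before scaling beside them. That array had the highest 75th percentile of the 16, 6179. The brighter miR-19b probe was saturated on 100% of its spots there, at 65278 intensity units, and on 30% of them on VPA replicate 4 at 48 hpf, so its value on these arrays is capped. The shorter miR-19b probe was saturated on no array, and with it the VPA minus vehicle difference was 0.07 at 96 hpf (adjusted p = 0.421, limma) and 0.09 at 48 hpf (adjusted p = 0.257). Both differences thus turned from negative to positive with the probe. miR-19a was not saturated. Its signal before scaling was 12404 on that array, above the 8329 to 9844 of the vehicle arrays. On VPA replicates 1 to 3 it was 5783, 6489 and 15796. Replicate 3, with a 75th percentile of 3415, was thus higher for miR-19a before scaling than the brighter replicate 4. Both miR-19a probes were low on replicate 4 after scaling, at -1.12 (brighter probe) and -1.07 (shorter probe) from the vehicle mean. miR-19d, in contrast, was 0.50 above the vehicle mean there. The part of array brightness in these differences was not tested.

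The shorter probes of miR-19c and miR-19d gave similar differences to the brighter ones. For miR-19c they were 0.31 at 96 hpf (adjusted p = 0.0216, limma) and 0.41 at 48 hpf (adjusted p = 0.00485). For miR-19d they were 0.21 at 96 hpf (adjusted p = 0.0591) and 0.20 at 48 hpf (adjusted p = 0.0782), and neither passed.

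**Figure D2:**
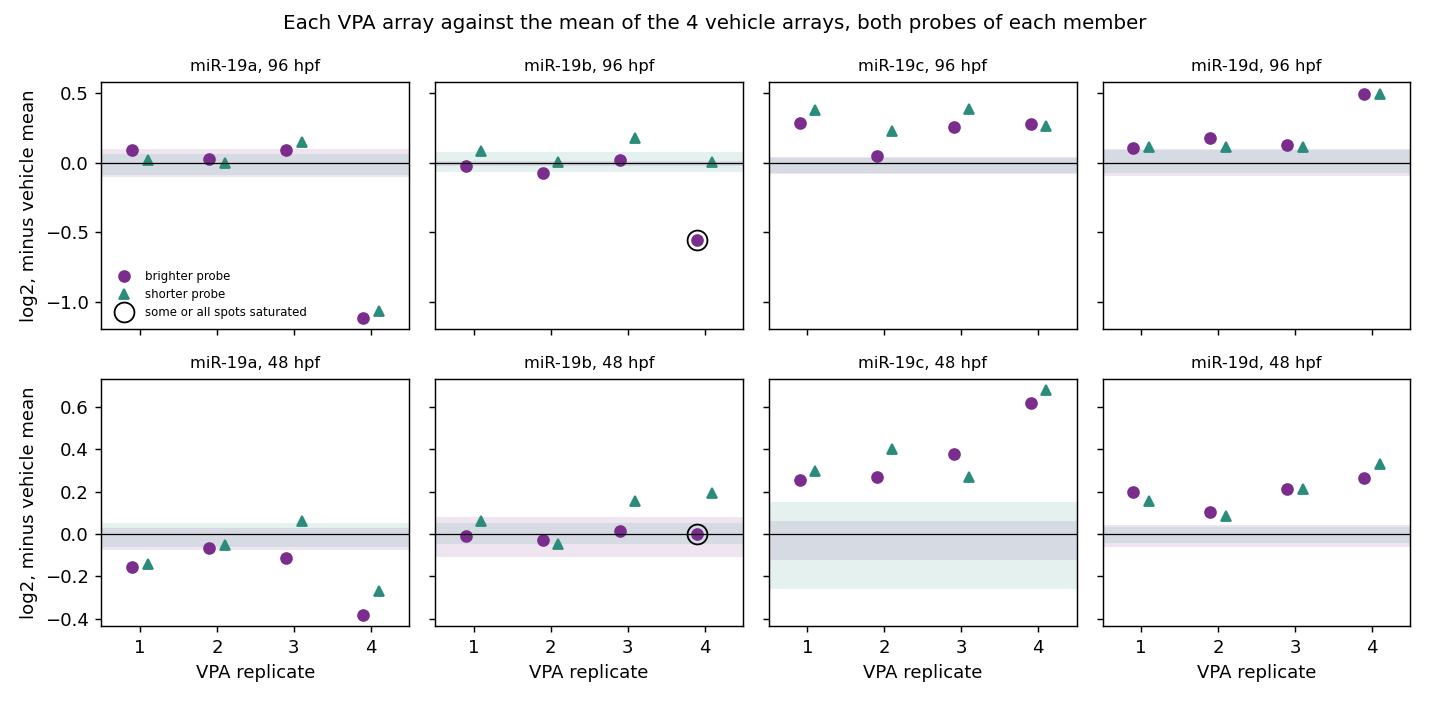
Each VPA array is plotted as its log2 value minus the mean of the 4 vehicle arrays of the same time, for the brighter probe (circles) and the shorter probe (triangles) of each member. Shaded bands are the vehicle ranges in the same colours, and open rings mark arrays on which some or all spots of the probe were saturated. The low miR-19b point of VPA replicate 4 at 96 hpf (-0.55) is a saturated spot set with an unsaturated shorter probe at 0.00, while both miR-19a probes are low there.

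In the chromosome 14 cluster with miR-363, all 4 miRNAs were called higher under VPA at 48 hpf, with a median of 0.30 (log2), and 3 of 4 at 96 hpf, with a median of 0.23. Over all 178 tested, 16.3% were called higher at 48 hpf and 14.6% at 96 hpf. With no scaling between arrays that median was -0.14 at 48 hpf and 0.46 at 96 hpf, against medians over all tested of -0.31 and 0.20, and 0 of the 4 were called at either time. Beside miR-19c, miR-18c, of the miR-18 seed family, was 0.34 higher at 96 hpf (adjusted p = 0.000915, limma) and 0.35 higher at 48 hpf (adjusted p = 0.00109). On the single arrays miR-18c stood at 2.51, 2.59, 2.54 and 2.64 under VPA at 48 hpf, against 2.12, 2.28, 2.22 and 2.27 in vehicle, with no overlap. miR-363, which shares the seed of miR-25 and miR-92, was 0.24 higher at 96 hpf (adjusted p = 0.0111) and 0.20 higher at 48 hpf (adjusted p = 0.0315). miR-20b, of the miR-17 seed family, was called at 48 hpf (0.24, adjusted p = 0.0238), while its 0.15 at 96 hpf did not pass (adjusted p = 0.139), except with the replicate number as a block (adjusted p = 0.0265). Apart from its first base, the 13-base miR-20b probe matches the start of the miR-17a probe. Apart from 1 base, it also matches the start of the miR-20a probe. Binding of miR-17a or miR-20a to the miR-20b probe was not tested. Leaving out any 1 of the 16 arrays left 2 to 4 of the cluster's miRNAs called higher at 48 hpf, 2 without VPA replicate 3 or without vehicle replicate 4 of that age, and 2 to 3 at 96 hpf. Without the bright VPA arrays 2 were called at 96 hpf and 4 at 48 hpf, and normexp background correction left 0 at both times. The 4 probes read the same arrays, so they are not independent of each other.

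In the chromosome 8 cluster of miR-19a and miR-19b, 8 of 10 entries could be tested. The miR-17a and miR-92a probes among them also map to a scaffold that holds miR-18b, so their values are not those of this cluster alone. The median difference was -0.01 at 96 hpf and -0.10 at 48 hpf (log2). Of the 8, 1 was called at 48 hpf, the star arm miR-17a*, at 0.20 higher (adjusted p = 0.0179, limma). Its groups overlapped, and it was dim, at -2.82 to -2.70 under VPA and well above background on 3 of 4 VPA arrays. At 96 hpf 0 of the 8 were called, and limma gave an unadjusted p of at least 0.125 for all of them. The star arms miR-17a* and miR-20a* could not be called lower there. Their vehicle values lay at or near the floor of -3.87 (means of -3.87 and -3.86), and they also enter the median. The shares called over all 178 were 16.3% higher and 12.9% lower at 48 hpf, and 14.6% and 18.5% at 96 hpf. miR-17a at 48 hpf was -0.17 (adjusted p = 0.117), miR-20a -0.14, miR-92a -0.09 and miR-18a -0.07, none of which passed. The star arms miR-19a* and miR-19b* of the family itself were not tested: miR-19a* was well above background on 1 of 16 arrays and miR-19b* on 0. In the cluster of miR-19d, miR-25 differed by 0.17 at 96 hpf and 0.04 at 48 hpf, and miR-93, of the miR-17 seed family, by -0.10 and -0.13, neither passing at either time.

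Of the 20 other miRNAs and star arms listed for the miR-17-92 and related clusters, 16 were on the array and 13 were tested. Under VPA 2 of the 13 were called higher at 96 hpf and 4 at 48 hpf, with 0 called lower at either time, and 0 were called either way with no scaling between arrays. At 96 hpf miR-17a*, miR-20a* and miR-92b could not be called lower. Their vehicle values lay at or near the floor (means of -3.87, -3.86 and -3.87), and they passed the filter for testing only through 48 hpf groups. Over all 178 tested, 14.6% were called higher and 18.5% lower at 96 hpf, so 2 of 13 is close to the background. At 48 hpf these shares were 16.3% and 12.9%. The median difference of the 13, those at the floor included, was 0.01 at 96 hpf and -0.07 at 48 hpf, against -0.03 and 0.00 for all 178. The 4 called at 48 hpf were miR-18c, miR-20b and miR-363 of the miR-19c cluster and miR-17a* of the miR-19a and miR-19b cluster.

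**Figure D3:**
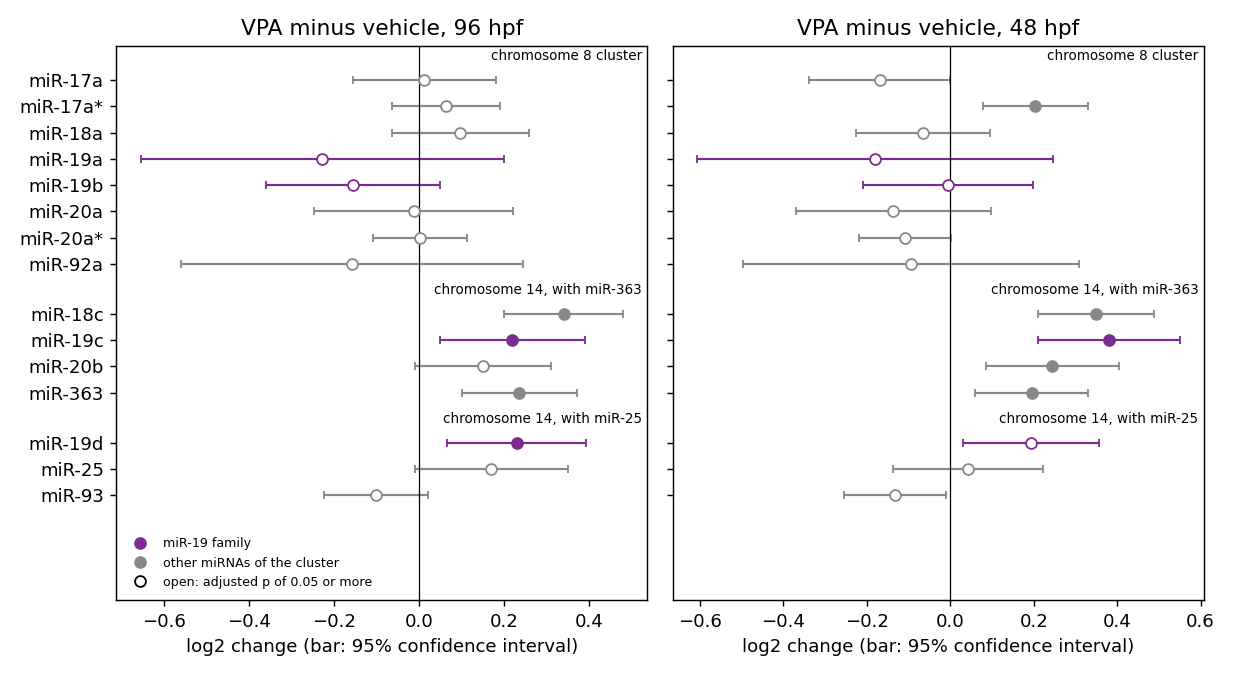
Points are VPA minus vehicle differences in log2 units with 95% confidence intervals, by genomic cluster, at 96 hpf (left) and 48 hpf (right), from 4 arrays per group. Filled points had an adjusted p under 0.05 in limma over 178 miRNAs. The 4 miRNAs of the chromosome 14 cluster with miR-363 are all to the right of 0 at both times; with no scaling between arrays their 48 hpf values lie to the left of 0.

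Whether 2 members moved by unequal amounts was tested on the difference of their log2 values within each array, which dividing an array by a constant cannot change, over 6 pairs at 2 times. At 48 hpf the VPA difference of miR-19c exceeded that of miR-19a by 0.56 ± 0.15 (log2, SE) and that of miR-19b by 0.39 ± 0.09, and for both pairs the 4 VPA arrays lay apart from the 4 vehicle arrays. For miR-19d the excess was 0.37 ± 0.10 over miR-19a and 0.20 ± 0.04 over miR-19b, also with no overlap. Each of these had p = 0.0286 in an exact two-sided permutation test, the smallest that 4 against 4 arrays allow, and an adjusted p of 0.0571 over the 12 tests, so none passed the threshold of 0.05. At 96 hpf the differences against miR-19b were 0.37 ± 0.16 for miR-19c and 0.38 ± 0.23 for miR-19d, but the miR-19b value on VPA replicate 4 is capped there by saturation, as it is in part on VPA replicate 4 at 48 hpf. Without that 96 hpf array they were 0.22 and 0.16 (adjusted p = 0.0857 each, exact permutation). With the shorter probes, none of them saturated, the differences against miR-19b at 96 hpf were 0.24 for miR-19c (adjusted p = 0.0686, exact permutation) and 0.14 for miR-19d (0.374). At 48 hpf the shorter probes gave 0.32 for miR-19c (adjusted p = 0.098, exact permutation) and 0.11 for miR-19d (0.0686). Against miR-19a at 96 hpf the differences were 0.45 ± 0.33 for miR-19c (adjusted p = 0.114, exact permutation) and 0.46 ± 0.40 for miR-19d (adjusted p = 0.343), and 1 array decided their size: without VPA replicate 4 they were 0.13 and 0.07 (adjusted p = 0.206 and 0.571). miR-19d against miR-19c gave -0.19 at 48 hpf (adjusted p = 0.0857, exact permutation) and 0.01 at 96 hpf (0.971). miR-19b against miR-19a gave 0.17 at 48 hpf (adjusted p = 0.0857, exact permutation) and 0.07 at 96 hpf (0.971), the last turning to -0.09 without VPA replicate 4 and standing at 0.29 with the shorter probes.

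From 48 to 96 hpf all 4 members fell, in VPA and in vehicle embryos alike, relative to the 75th percentile of the arrays. In VPA embryos miR-19a averaged 1.89 ± 0.59 at 96 hpf and 2.76 ± 0.14 at 48 hpf (log2, SD, n = 4 arrays each), and in vehicle embryos 2.12 ± 0.09 and 2.94 ± 0.05. The change was -0.87 ± 0.20 (SE) in VPA embryos and -0.82 ± 0.20 in vehicle embryos, with adjusted p-values of 0.000977 and 0.00147 (limma). Without the low VPA array at 96 hpf the VPA change was -0.57.

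miR-19b averaged 3.80 ± 0.27 at 96 hpf and 4.61 ± 0.02 at 48 hpf in VPA embryos, and 3.95 ± 0.02 and 4.62 ± 0.08 in vehicle embryos (log2, SD). Its change was -0.82 ± 0.10 in VPA embryos and -0.67 ± 0.10 in vehicle embryos (adjusted p = 1.36e-06 and 1.18e-05, limma). Quantile normalization, which forces the arrays to 1 distribution, reduced these to -0.08 and 0.00, and neither passed. With the shorter, unsaturated probe they were -0.94 and -0.91.

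miR-19c averaged -0.84 ± 0.11 at 96 hpf and 0.15 ± 0.17 at 48 hpf in VPA embryos, and -1.05 ± 0.06 and -0.23 ± 0.08 in vehicle embryos (log2, SD). Its change was -0.98 ± 0.08 in VPA embryos, 1.98-fold, and -0.82 ± 0.08 in vehicle embryos, 1.77-fold (adjusted p = 2.22e-08 and 1.69e-07, limma). miR-19d averaged 0.42 ± 0.18 at 96 hpf and 1.42 ± 0.07 at 48 hpf in VPA embryos, and 0.19 ± 0.09 and 1.23 ± 0.04 in vehicle embryos. Its change was -1.01 ± 0.08 and -1.04 ± 0.08, 2.01-fold and 2.06-fold (adjusted p = 1.06e-08 and 6.39e-09, limma).

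The groups of the 2 ages did not overlap for any of the 4 members in either treatment, as was so for 70.2% of all miRNAs tested in VPA embryos and 82.6% in vehicle embryos. All 4 were called lower in both, against 36.0% of all tested in VPA embryos and 34.3% in vehicle embryos. The fall depends on scaling: before scaling the 4 members changed by 0.60 to 0.78 in VPA embryos and by -0.11 to 0.27 in vehicle embryos, none past the threshold, while the median of all tested changed by 1.47 and 0.98. Relative to that median the unscaled changes were -0.87 to -0.68 in VPA embryos and -1.09 to -0.71 in vehicle embryos. The same held for the other cluster miRNAs, of which 13 of 13 tested were lower at 96 hpf in both treatments, with a median of -0.84 in VPA embryos and -0.90 in vehicle embryos, against 0.02 and 0.11 over all 178. With no scaling their medians were 0.48 and -0.10. In vehicle embryos at 96 hpf the 3 dimmest of them, miR-17a*, miR-20a* and miR-92b, were well above background on 0 of 4 arrays, so their falls are limited by the floor. These 3 passed the filter for testing only through 48 hpf groups, so the filter itself favoured a fall for them. The count of 13 of 13 includes them, and their direction is not a result.

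**Figure D4:**
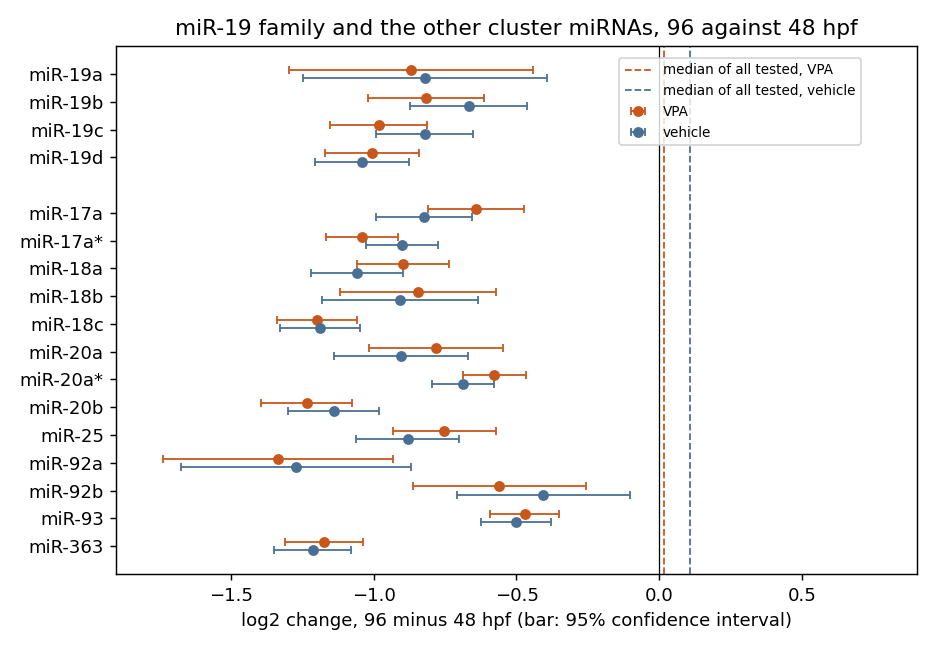
Points are 96 minus 48 hpf differences in log2 units with 95% confidence intervals, in VPA embryos (orange, upper) and vehicle embryos (blue, lower), for the miR-19 family (top 4) and the 13 other cluster miRNAs tested. Dashed lines are the medians over all 178 miRNAs, 0.02 in VPA embryos and 0.11 in vehicle embryos. miR-17a*, miR-20a* and miR-92b passed the filter for testing only through 48 hpf groups, which favours a fall. All points lie left of 0 after scaling to the 75th percentile; with no scaling the 4 members lie at 0.60 to 0.78 in VPA embryos and -0.11 to 0.27 in vehicle embryos.

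In order of level, miR-19a and miR-19b ran from vehicle at 48 hpf through VPA at 48 hpf and vehicle at 96 hpf to VPA at 96 hpf, and neighbours of the same age overlapped, so the order of VPA and vehicle within an age is not settled for these 2 members. With the unsaturated shorter probe miR-19b was higher under VPA at both ages (0.07 at 96 hpf and 0.09 at 48 hpf), and without VPA replicate 4 miR-19a was higher under VPA at 96 hpf (0.07). miR-19c and miR-19d ran from VPA at 48 hpf through vehicle at 48 hpf and VPA at 96 hpf to vehicle at 96 hpf, with no overlap between neighbours. That order depends on scaling. With no scaling their VPA differences at 48 hpf were -0.06 and -0.24. In VPA embryos all 4 members were then higher at 96 hpf (0.60 to 0.78). After scaling, miR-19d at 48 hpf did not pass (adjusted p = 0.067, limma), and the miR-19c call at 96 hpf held in 6 of 15 alternative settings. The VPA difference at 96 hpf minus that at 48 hpf was -0.05 ± 0.28 for miR-19a, -0.15 ± 0.14 for miR-19b, -0.16 ± 0.11 for miR-19c and 0.04 ± 0.11 for miR-19d (log2, SE). None of the 4 passed (adjusted p = 0.366 to 0.94, limma; unadjusted p from 0.175), against 12.4% of all tested that passed in either direction. Without VPA replicate 4 at 96 hpf the difference was 0.25 for miR-19a and -0.02 for miR-19b. For miR-19c the interval of this difference ran from -0.40 to 0.08.

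The miRNAs with the most similar course over the 16 arrays were taken by the root-mean-square difference of their centred log2 profiles, among all other miRNAs tested, as a description. For miR-19c these were miR-15b (0.136), miR-19d (0.143) and miR-16a (0.145), and for miR-19d miR-15b (0.0925), miR-17a* (0.112) and miR-19c (0.143). For miR-19a they were miR-9, a neural miRNA (0.140), miR-18b (0.167) and miR-19b (0.183), and for miR-19b miR-9 (0.118), miR-20a (0.143) and miR-17a (0.144). The median over all tested was 0.47 to 0.58 for these 3 members and 0.62 for miR-19d. In likeness to miR-19a, miR-19c had rank 42 and miR-19d rank 45, while miR-19c and miR-19d were among each other's first 3. The shared arrays and their brightness enter these values. VPA replicate 4 at 96 hpf enters the ranks against miR-19a. There miR-19a stood at 1.0 (log2), against 2.14 to 2.21 on the other VPA arrays of that age. miR-19c (-0.78) and miR-19d (0.69) were not low there, and the miR-19b probe was saturated on 100% of its spots. Likeness was not computed without that array, so the ranks do not tell whether the courses differ on the other arrays.

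Of 13 tissue marker miRNAs, all tested, 2 were called at 96 hpf under VPA, the erythroid miR-451 at 0.43 and the liver miR-122 at -0.37 (log2). The other erythroid marker, miR-144, went the other way at 96 hpf and did not pass (-0.46, adjusted p = 0.153, limma), averaging -2.88 ± 0.67 under VPA and -2.43 ± 0.09 in vehicle (SD, n = 4 arrays each). At 48 hpf 3 were called, the muscle miR-206 at 0.42, the neuronal miR-124 at -0.47 and miR-122 at -0.54, the last well above background on 2 of 4 VPA arrays. The miR-206 call was narrow (adjusted p = 0.0486, limma). The other muscle markers, miR-1 (0.23, adjusted p = 0.418) and miR-133a (0.13, adjusted p = 0.472), did not pass at 48 hpf. Neither did the other neural marker, miR-9 (-0.04, adjusted p = 0.893). Over all 178 tested, 14.6% were called higher and 18.5% lower at 96 hpf, and 16.3% and 12.9% at 48 hpf, so the markers were not called more often than miRNAs in general. The differences of the 13 ran from -0.46 to 0.43 at 96 hpf and from -0.54 to 0.42 at 48 hpf. Their part in the differences of the miR-19 family was not tested.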

How the data were processed

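The 16 samples are total RNA, each labelled with Cy3 and read on a 1-colour Agilent miRNA array. What the authors deposited per array is a scanner file of spot intensity values, from which the local background had been taken off but which had not been brought to a common level with other arrays. Per the file headers these came from Agilent Feature Extraction (version 9.5.3.1, given as 9.5 in the submitters' processing notes). Deposited flags mark spots that are saturated, non-uniform or well above background, as defined per the file headers. A value table is also deposited, and 100% of its intensity values lie within 1% of those in the scanner files. Probe coordinates are on danRer6, per the file headers.

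Control spots were dropped. Each signal was scaled by its array's 75th percentile over 10360 non-control spots, outlier spots included. It was then raised to a floor of 0.0682 (-3.87 on the log2 scale) set by the dimmest probe well above background on each array (the median of the 16 values). Outlier spots (3.32% to 8.07% of an array) were left out when the spots of a probe were averaged as log2, and each miRNA was read from its brightest probe. Testing needed signal well above background at over 0.5 of the spots on 3 or more arrays in 1 group or more, a filter that 178 of 245 miRNAs passed. The 4 group means were estimated with limma 3.58.1 (lmFit, eBayes) from all 16 arrays in R 4.3.3 with data.table (version 1.17.8), with two-sided p-values adjusted by Benjamini-Hochberg over the 178 and a threshold of 0.05. Differences between members were tested by exact permutation in Python 3.11.15 (scipy 1.17.1, pandas 2.3.3, numpy 2.4.6), and figures drawn with matplotlib 3.10.9. The scripts were tested on simulated data. Array number and signal over background, not read depth, limit the precision.

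The members, the list of other cluster miRNAs, the tissue markers and the named miRNAs (the members, list entries called under VPA or within 10000 bases of a member, and the 3 most similar miRNAs of each member) were chosen with earlier results of these data known. Same-numbered VPA and vehicle samples at 96 hpf deviated together from their group means, with correlations of 0.289, 0.282, 0.276 and 0.248. This is a hint of pairing from the data and not from the labels. Same-numbered arrays also lay in the same row of their slide, so pairing of samples and array row cannot be told apart. At 48 hpf the correlations were 0.0971, -0.180, 0.325 and -0.151. Neither the main limma fit nor the main permutation tests used pairs at either age. The replicate block, an alternative, was fitted within both ages. Alternatives varied the background correction, scaling, floor, filter, probe rule, samples, block and spread.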

Additional observations from a re-analysis of the deposited data

Results flagged for a closer look

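In groups of 4 arrays, a value was singled out where its gap to the nearest other array took up most of the range of its group (Dixon's test at the 95% level), which chance does in about 1 of 20 groups. Of 16 groups checked, 4 held such a value. miR-19a on VPA replicate 4 at 96 hpf stood at 1.0 (log2), with the nearest other VPA array at 2.14. miR-19b on the same array stood at 3.40, with the nearest at 3.88, and its probe was saturated there. miR-19c on VPA replicate 2 at 96 hpf stood at -1.01, with the nearest at -0.79. miR-19a on vehicle replicate 4 at 48 hpf stood at 2.86, with the nearest at 2.95.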

How the results depend on the processing

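Replicate block: miR-19d at 48 hpf passed with the block (0.19, adjusted p = 0.0386), miR-19c at 96 hpf (0.22) no longer did (adjusted p = 0.0957), and the other VPA calls of the 4 members kept their side; the block lies within each age, so the age changes have no blocked value, and the difference of the VPA effects none from the arrays of 2 groups alone. With no scaling, miRNAs called under VPA numbered 0 at 96 hpf (0 with an unadjusted p under 0.05), 0 at 48 hpf (8) and 0 for the difference of the effects (1), and 78 for age in vehicle embryos, against 59, 52, 22 and 143. The members then stood at 0.0030, 0.075, 0.45 and 0.46 (miR-19a to miR-19d, log2) at 96 hpf and, at 48 hpf, at -0.057 for miR-19c and -0.24 for miR-19d. Their differences of effects stood at 0.62, 0.52 and 0.51 (miR-19a to miR-19c), and age changes at 0.73, 0.78, 0.62 and 0.60 in VPA and 0.11, 0.27, 0.11 and -0.11 in vehicle embryos. Normexp gave 0 calls at 96 hpf (22 with an unadjusted p under 0.05) and 4 at 48 hpf. It gave 2 for the difference and 84 for age in vehicle embryos. At 96 hpf it put miR-19c at 0.12 and miR-19d at 0.23. At 48 hpf it put miR-19c at 0.32 (uncalled) and miR-19d at -0.014. The differences of effects under normexp were 0.26 for miR-19a and 0.18 for miR-19b. The percentile over detected probes left miR-19c (0.22) and miR-19d (0.23) at 96 hpf uncalled and gave miR-19a a difference of 0.0067. Quantile normalization left the miR-19b age changes at -0.078 and 0.00. miR-19c at 96 hpf (0.22) was also uncalled with no floor, with no filter, with only miRNAs above background on all arrays and in the 2 groups alone, where miR-19d at 96 hpf (0.23) was uncalled and miR-19d at 48 hpf (0.19) called. The all-array filter gave 31 calls at 96 hpf and 7 for the difference, and the 2 groups alone 36 at 96 hpf. miR-19b at 48 hpf was 0.043 with the mean of all probes, 0.040 with the total gene signal and 0.091 with its shorter probe, which gave 0.069 at 96 hpf and miR-19d 0.21 there (uncalled).

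Without the 3 bright VPA arrays 81 miRNAs were called at 48 hpf and 50 for the difference of effects. miR-19a then stood at 0.059, miR-19c at 0.17 and miR-19d at 0.14 at 96 hpf (none called), miR-19d at 0.17 at 48 hpf (called, but not without the bright 48 hpf array alone), and the differences at 0.17 for miR-19a and -0.026 for miR-19d. Pair differences at 48 hpf passed with the mean of all probes for miR-19d over miR-19b (0.15) and miR-19a (0.34), miR-19c over miR-19b (0.35) and miR-19a (0.54) and miR-19b over miR-19a (0.18), as did miR-19c over miR-19b (0.31) and miR-19a (0.49) at 96 hpf (adjusted p = 0.049 each, exact permutation). miR-19d minus miR-19c at 96 hpf was -0.046 there, -0.10 with the shorter probes and -0.024 without the bright arrays, where miR-19b minus miR-19a was -0.11. The causes were not tested. Leaving out 1 array at a time gave 43 to 68 calls at 96 hpf, 38 to 83 at 48 hpf, 20 to 43 for the difference (83 and 43 without VPA replicate 4 at 96 hpf), 131 to 142 for age in VPA and 135 to 151 in vehicle embryos. At 96 hpf it gave -0.33 to 0.069 for miR-19a, -0.22 to -0.023 for miR-19b, 0.19 to 0.28 for miR-19c and 0.14 to 0.27 for miR-19d. At 48 hpf it gave -0.22 to -0.11, -0.041 to 0.021, 0.30 to 0.42 and 0.17 to 0.22 for the 4 in this order, and for the differences -0.15 to 0.25, -0.21 to -0.018, -0.20 to -0.081 and -0.055 to 0.075. miR-19d minus miR-19c at 96 hpf ran from -0.059 to 0.073, miR-19b minus miR-19a from -0.092 to 0.13, miR-19c minus miR-19a from 0.13 to 0.59, miR-19d minus miR-19a from 0.07 to 0.60, miR-19c minus miR-19b from 0.22 to 0.46 and miR-19d minus miR-19b from 0.16 to 0.48, the lowest of each without VPA replicate 4. Every age change of a member stayed negative and called in all 16 of these fits. The shorter-probe setting and the pair differences without the bright arrays were chosen after seeing the data.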

Other observations

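Of the 6 other chromosome 8 miRNAs tested, VPA replicate 4 at 96 hpf stood below the vehicle mean by over 0.1 (log2) for 4, at -0.61 for miR-92a, -0.36 for miR-20a, -0.16 for miR-18a and -0.13 for miR-17a. For the star arms miR-17a* (0.12) and miR-20a* (0.00) such a fall could not be seen. Their vehicle values at 96 hpf lay at or near the floor of -3.87 (means of -3.87 and -3.86). For miR-92a VPA replicate 3 was low too, at -0.54, against 0.42 and 0.11 on VPA replicates 1 and 2. VPA replicate 4 at 96 hpf was also read for the neighbours of miR-19c and miR-19d on chromosome 14. It stood at 0.27 for miR-25, 0.16 for miR-363, 0.13 for miR-18c, 0.07 for miR-20b and -0.11 for miR-93. The share of all tested miRNAs that were low on this array was not counted. Whether the drop is particular to the chromosome 8 cluster was thus not tested. Wide spread under VPA at 96 hpf was also seen in miR-1 and miR-9, outside these clusters. Their SD was 0.57 and 0.40 under VPA, against 0.04 and 0.02 in vehicle. miR-18b is annotated on a scaffold that was not assigned to a chromosome, to which the miR-17a and miR-92a probes also map. On VPA replicate 4 at 96 hpf miR-18b stood at 0.14, against 0.64 to 0.81 on the other VPA arrays and 0.69 to 0.83 on the vehicle arrays.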
